A study of Caenorhabditis elegans with 44 samples.

Results

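The microRNAs miR-51, miR-52 and miR-53 of *Caenorhabditis elegans* are described here through the 6 mature strands that carry these names in the deposited count table, out of 437 strands in all. They were chosen by name, with earlier results of these data known. Both the 5p and the 3p strand of each of the 3 hairpins were taken, and all 6 passed the minimum mean count of 10 that left 272 strands for testing. The sequenced small RNAs came from whole worms of the wild-type (WT) laboratory strain N2, which were plated as synchronised first-stage (L1) larvae, kept at 25 °C without treatment and collected at every hour from 5 h to 48 h. The 44 libraries held 1 library of pooled worms for each hour, so there were no replicates, and every p-value below measures the scatter of hourly libraries around a curve or a block mean within a single time course.

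A microRNA hairpin is cut into a short duplex, of which the guide strand is usually kept by an Argonaute protein while its partner, the passenger strand, is usually lost. miR-51, miR-52 and miR-53 belong to the miR-51 family of nematodes, whose guides share the seed, the stretch near the 5′ end that pairs with target messenger RNAs. The other members are miR-54, miR-55 and miR-56, which lie together on another chromosome. The family is known for overlapping roles in the worm embryo: loss of all of its members is lethal, and the pharynx can fail to stay attached to the mouth.

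In the annotation of the WBcel235 assembly, which is not the ce10 build used for counting, the 3 hairpins lay on chromosome IV. The mir-51 hairpin lay on the minus strand at chrIV:11026013-11026112, with miR-51-5p at 11026074 to 11026096 and miR-51-3p at 11026035 to 11026056. The mir-53 hairpin lay on the same strand at chrIV:11027593-11027691, with 1480 bases between it and mir-51, and held miR-53-5p at 11027653 to 11027676 and miR-53-3p at 11027614 to 11027635. The mir-52 hairpin lay on the plus strand at chrIV:14034008-14034107, which placed 3006316 bases between mir-53 and mir-52, with miR-52-5p at 14034024 to 14034047 and miR-52-3p at 14034065 to 14034086. No other annotated gene overlapped mir-51 or mir-53, whereas mir-52 overlapped the noncoding RNA Y37A1B.335 on the opposite strand.

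Library totals lay between 1669246 counts at 38 h and 14672735 at 31 h (median 10678292), and the second lowest was 7059421. Levels are given as normalised counts, the count divided by the library total and multiplied by the mean total. They describe shares of the sequenced microRNAs, so that fewer cells of a type and less RNA per cell cannot be told apart, and capture into a library differs between strands, so levels of different strands are only roughly comparable. Guides of this family resemble each other, and how reads that fit more than 1 of them were divided was not tested, so levels of single guides are uncertain to that extent. Among marker strands, miR-1-3p of muscle had block medians of 11396 to 15042 normalised counts, and the 3 neuronal strands together had block medians that were highest at 5 to 7 h, with 5503, and lowest at 43 to 48 h, with 1151. The glial and hypodermal strand miR-228-5p was likewise lowest at 43 to 48 h, and the 8 strands of the miR-35 family, known from embryos and the germ line, had a summed median of 1226373 at 43 to 48 h against 227397 at 36 to 42 h. None of these marker strands was at 0 in all libraries, and their part in the results below was not tested.

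All 3 hairpins were dominated by the 5p strand at every hour. miR-52-5p was the most abundant, with a mean of 96345 normalised counts over the 44 libraries, a median of 82187 and a range of 36752 at 45 h to 249502 at 8 h, which ranked it 22nd of 437 strands. miR-51-5p followed with a mean of 76059, a median of 71189 and a range of 38430 at 26 h to 164570.2 at 6 h (rank 28). miR-53-5p had a mean of 8104, a median of 7464 and a range of 4430 at 45 h to 15152 at 8 h (rank 68). miR-53-5p was the lowest of the 3 guides in every library, while the order of the upper pair depended on the hour.

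miR-52-5p was above miR-51-5p in 29 of 44 libraries. miR-51-5p was the higher in the other 15, which were those of 16, 17, 19, 27 and 28 h and all 10 from 39 h to 48 h. miR-51-5p amounted to 25.6% of miR-52-5p at 8 h and 175% at 45 h, the extremes of the course. Together the 3 guides made up 0.847% of all counts at 47 h and 3.36% at 5 h, and between 46.6% and 69.6% of the counts of the 6 family guides.

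The 3p strands were far rarer. miR-52-3p had a mean of 5579 normalised counts, a median of 5258 and a range of 985 at 41 h to 13668 at 8 h. miR-51-3p had a mean of 593, a median of 397 and a range of 197 at 19 h to 1662 at 48 h. miR-53-3p had a mean of 161, a median of 111 and a range of 19.2 at 37 h to 389 at 6 h, where the lowest level rested on 22 reads. miR-52-3p exceeded miR-51-3p in 42 of 44 libraries, and it even passed the guide miR-53-5p in 6 libraries, at 14, 16, 21, 22, 47 and 48 h. The guide exceeded its partner 128-fold for miR-51, 50.4-fold for miR-53 and 17.3-fold for miR-52 in means over the course, and the median over the 102 hairpins with both strands tested was 22.1-fold.

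**Figure D1:**
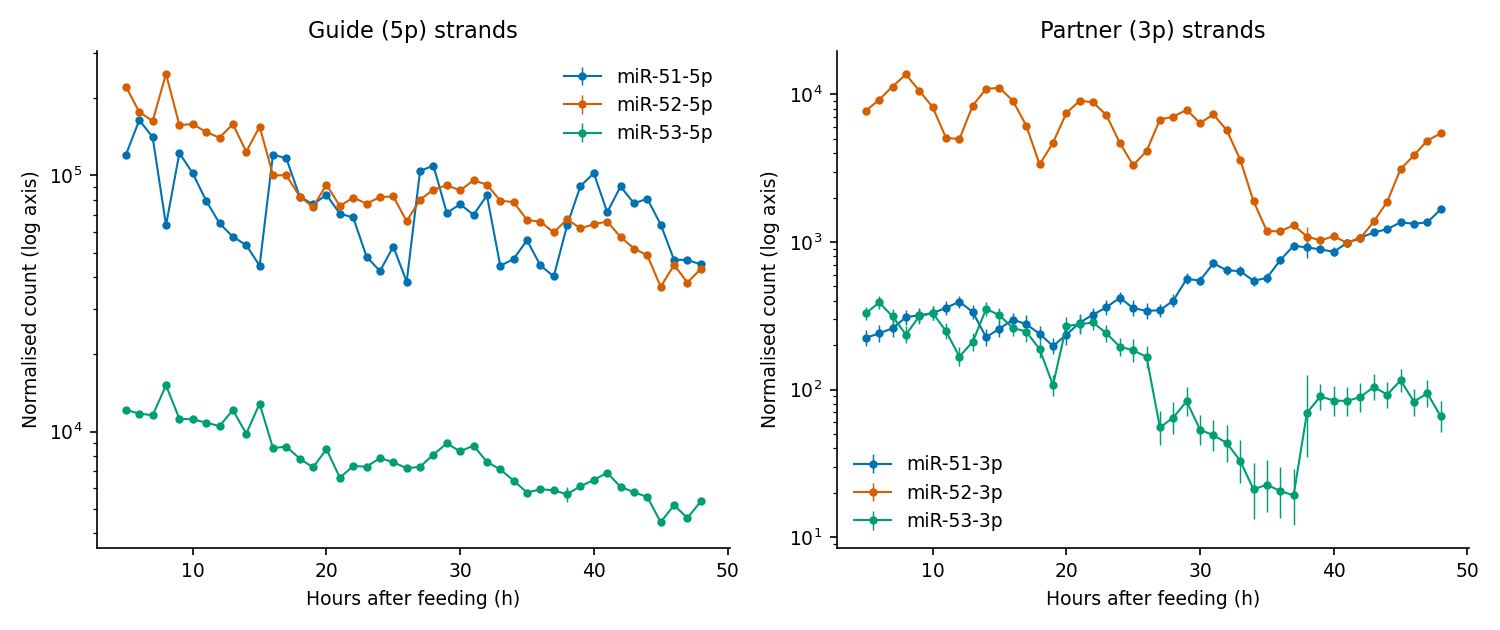
Normalised counts (log axis) of the 5p guides (left) and 3p partners (right) of miR-51, miR-52 and miR-53 against hours after feeding, 1 library per hour, with bars for the 95% Poisson counting interval. miR-53-5p lies below the other guides throughout, miR-51-3p is highest at 48 h (1662) and miR-53-3p lowest at 37 h (19.2).

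To ask whether the strands followed the 7 h molting cycle or a steady trend, a curve with a cosine, a sine and a line was fitted to the 28 libraries of 8 h to 35 h in edgeR. A rhythm was called where the adjusted p was under 0.05 and the amplitude, the height of the peak above the trend, was at least 0.5 log2 units. A line was called where the adjusted p was under 0.05 and the change over the window was at least 1 log2 unit. Calls used the fitted change itself, while changes are given here relative to the median change of all tested strands, which was 0.06 log2 units with scaling by total counts, 0.18 with TMM factors and 0.14 with DESeq2 size factors.

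None of the 6 strands was called rhythmic in edgeR, in DESeq2 or in limma, where edgeR called 14.3% of all strands tested. At an unadjusted p under 0.05, 1 of the 6 passed in edgeR, as did 30.1% of all strands. The median amplitude of the 6 was 0.16 log2 units and that of all tested strands 0.14. Over the same window 1 of the 6 strands rose, where 27.9% of all strands did, and 3 fell, where 25% of all strands did. In the mir-54 to mir-56 cluster, 1 of 6 strands fell, none rose and none was called rhythmic. Its partners miR-54-5p, miR-55-5p and miR-56-5p missed only the amplitude limit, with 0.32, 0.30 and 0.36 log2 units. Their adjusted p-values were 9.0e-04, 0.0010 and 2.5e-04 in edgeR, and those of the guides miR-54-3p, miR-55-3p and miR-56-3p were 0.589, 0.561 and 0.661.

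Of the 6 members, the strand nearest to a rhythm call was miR-52-3p, the partner of the most abundant guide. Its level peaked at 8, 15, 21 and 29 h, with 13668, 11077, 9069.9 and 7869 normalised counts in that order. The lows between these peaks, at 12, 18 and 25 h, were 4987, 3358 and 3318. Its peaks were thus 7, 6 and 8 h apart, and the first 3 stood 2.74, 3.30 and 2.73 times above the low that followed. After a smaller maximum of 7324 at 31 h, the level was 1186 at 35 h and stayed between 985 and 1299 from 36 h to 42 h.

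The fitted amplitude of miR-52-3p was 0.50 ± 0.14 log2 units (SE, 28 libraries), just under the limit, with an adjusted p of 0.0260 in edgeR. The call depended on where the window ended and on the period: over 8 h to 28 h the amplitude was 0.68 (adjusted p = 1.3e-07), and with a period of 7.5 h or 8 h over the whole window it was 0.61 or 0.59 (adjusted p = 0.00112 and 0.00754), all of which passed. It also passed when the library of 9, 13, 20, 23, 27, 32, 33 or 35 h was left out, with amplitudes of 0.50 to 0.57. Leaving out each library in turn gave amplitudes of 0.46 to 0.57 and adjusted p-values up to 0.0572 in edgeR. With residuals of neighbouring hours allowed to correlate, the amplitude of miR-52-3p was 0.40 and was not called (adjusted p = 0.102). Its guide miR-52-5p had an amplitude of 0.09 ± 0.08 log2 units with an adjusted p of 0.762 in edgeR, and the amplitudes of the other 4 strands lay between 0.08 and 0.25.

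**Figure D2:**
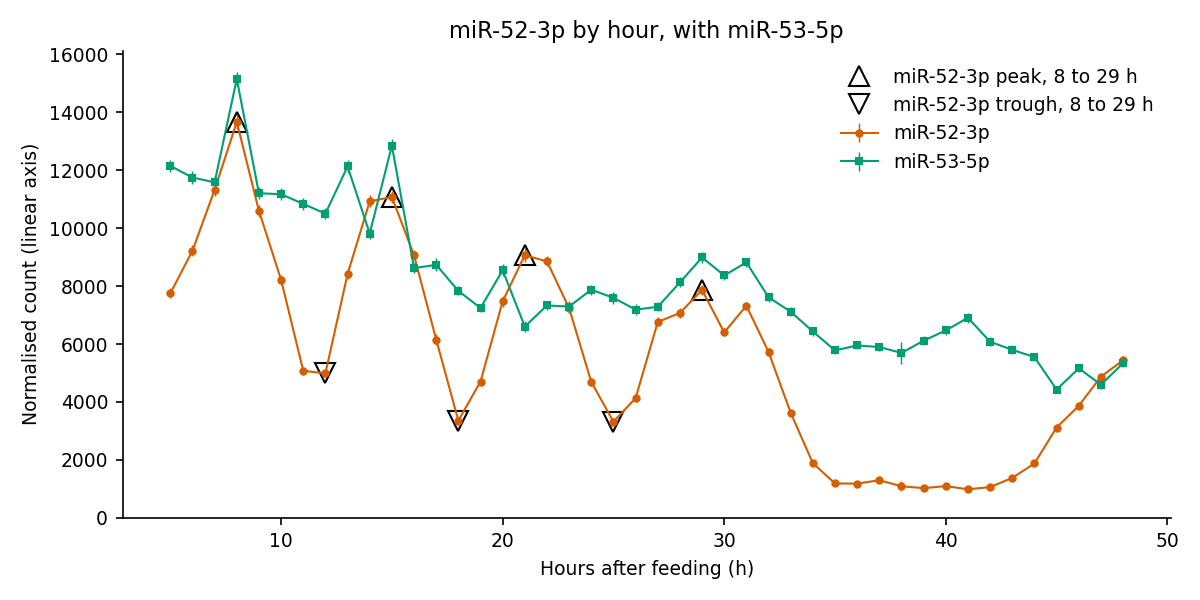
Normalised counts (linear axis) of miR-52-3p (circles) and miR-53-5p (squares) against hours after feeding, with 95% Poisson bars and open triangles at the peaks and troughs of miR-52-3p between 8 h and 29 h. miR-52-3p stays between 985 and 1299 from 36 h to 42 h and stands at 5439 at 48 h.

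Of the strands that fell, miR-53-3p had the largest change, −3.30 ± 0.50 log2 units relative to the median (edgeR, adjusted p = 1.9e-06), the 5th largest fall of all strands tested. miR-52-5p fell by 1.27 ± 0.18 log2 units (edgeR, adjusted p = 1.0e-06) and miR-52-3p by 1.12 ± 0.33 (edgeR, adjusted p = 0.00520). miR-53-5p was lower by a similar, tightly estimated amount, −0.87 ± 0.13 log2 units (edgeR, adjusted p = 5.0e-06), which stayed under the limit of 1. The change of miR-51-5p, −0.43 ± 0.31, did not pass (edgeR, adjusted p = 0.279).

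The strand that rose was miR-51-3p, the rare partner of miR-51-5p, with a change of 1.13 ± 0.21 log2 units (edgeR, adjusted p = 8.9e-06). With residuals of neighbouring hours allowed to correlate, the lines of miR-51-3p (adjusted p = 0.379), miR-52-3p (0.228) and miR-53-3p (0.134) were no longer called, while that of miR-52-5p was (0.0410). The line of miR-52-3p was also lost with TMM factors (−1.17) and without the library of 34 h (−0.99) or 35 h (−0.88). Over 15 h to 35 h alone, the change of miR-52-5p was −0.27 (edgeR, adjusted p = 0.0924), and that of miR-52-3p was not called. Over 8 h to 28 h alone, the changes of miR-51-3p (0.25, adjusted p = 0.304), miR-52-3p (−0.75, adjusted p = 2.1e-05) and miR-53-3p (−0.97, adjusted p = 0.0340) in edgeR all missed a call.

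The course was then compared as 7 blocks, each later block against the one before. The 5 blocks between 8 h and 42 h span 7 h each, over which a 7 h rhythm averages out, whereas those of 5 to 7 h and 43 to 48 h hold only 3 and 6 h, so a rhythm can enter the first and the last contrast. Hours of a block are not replicates. Over the 6 successive contrasts of the 6 strands, 15 of 36 were called in edgeR, 6 higher and 9 lower in the later block, and 9 of the 15 belonged to 3p strands. Over all tested strands 39% of such contrasts were called, close to the share among the members. Without the shallow library of 38 h the number called was likewise 15. The medians of all strands shifted by −0.25 and −0.28 log2 units in the last 2 contrasts with total-count scaling, against −0.03 and −0.05 with TMM factors. Changes below are relative to these medians unless called unshifted. Each call and adjusted p tests the unshifted change, which can differ from the value printed beside it.

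miR-51-5p averaged 77742 ± 25598 normalised counts at 8 to 14 h against 142031 ± 22065 at 5 to 7 h (SD over 7 and 3 hours). The change of −0.94 ± 0.30 log2 units had an adjusted p of 0.0307 in edgeR, in a contrast where 4.04% of all strands were called lower and 18% higher. The 11 strands behind that lower share were 19 with TMM factors, 43 with DESeq2 size factors and 48 in DESeq2, and 6, 3, 6 and 6 without the library of 5, 6, 7 or 14 h. It was lost when the library of 5, 6, 7, 12, 13 or 14 h was left out, with changes of −1.03, −0.84, −0.99, −0.92, −0.86 and −0.87 in that order and adjusted p-values between 0.0540 and 0.159. No later contrast of miR-51-5p was called.

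Hours 7 h apart, the period used in the fit, were also compared. The hours of 5 to 7 h lie before the window of 8 h to 35 h, so an equal phase was not shown. miR-51-5p also fell at all 6 hourly steps from 9 h to 15 h, so 12 to 14 h lay late in a decline. miR-51-5p had 65037, 57620 and 53491 normalised counts at 12, 13 and 14 h, against 120472, 164570.2 and 141051 at 5, 6 and 7 h. The change of −1.31 ± 0.15 log2 units had an adjusted p of 0.00314 in edgeR. miR-51-5p was the 1 of 6 strands called in this comparison, where 5.88% of all strands were called lower and 13.2% higher.

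miR-52-5p averaged 97395 ± 27554 normalised counts at 15 to 21 h against 162312 ± 40480 at 8 to 14 h (SD over 7 hours each). The change was −0.71 ± 0.13 log2 units with an adjusted p of 1.1e-05 in edgeR. In this contrast 20.2% of all strands were called lower and 21% higher. miR-53-5p averaged 8635 ± 2021 against 11546 ± 1741 in the same blocks, a change of −0.39 ± 0.11 log2 units (edgeR, adjusted p = 0.00143).

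Both guides were also called lower at 36 to 42 h than at 29 to 35 h. The unshifted changes were −0.42 ± 0.13 log2 units for miR-52-5p and −0.30 ± 0.11 for miR-53-5p, or −0.17 and −0.05 relative to the median. miR-52-5p was called lower again at 43 to 48 h than at 36 to 42 h, with −0.53 ± 0.13 unshifted, or −0.25 relative to the median. These late calls were lost with TMM factors (adjusted p = 0.286, 0.674 and 0.120) and with DESeq2 size factors. After 15 to 21 h, neither guide had a block change that was called under every scaling.

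miR-53-3p averaged 43.7 ± 21.5 normalised counts at 29 to 35 h against 170 ± 85.0 at 22 to 28 h (SD over 7 hours each). The change was −1.96 ± 0.34 log2 units with an adjusted p of 1.3e-05 in edgeR, where 21.3% of all strands were called lower and 17.6% higher. Within the earlier block the level was 167 at 26 h and 55.3 at 27 h, so most of the difference lay between these neighbouring libraries.

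With total-count scaling, miR-51-3p was called in all 6 contrasts. It averaged 242, 324, 256, 364, 603, 918 and 1349 normalised counts in the 7 blocks in order of time. Each of the last 4 blocks, from 22 h onward, was higher than the one before, by 0.49, 0.73, 0.86 and 0.83 log2 units, with SEs of 0.10 and adjusted p-values of 1.2e-04 or less in edgeR. In the contrast at 22 to 28 h, 21% of all strands were called higher and 14.3% lower. The first changes, 0.36 at 8 to 14 h and −0.31 at 15 to 21 h, were both lost in edgeR with TMM factors (adjusted p = 0.167 and 0.109). The earlier of them was also lost in edgeR with DESeq2 size factors (adjusted p = 0.268) and in the DESeq2 test (adjusted p = 0.255). In edgeR it was lost as well without the library of 5 h (0.32, adjusted p = 0.117) or 6 h (0.33, adjusted p = 0.0596).

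miR-52-3p had the largest late changes. It averaged 1106 ± 105 normalised counts at 36 to 42 h against 4860 ± 2649 at 29 to 35 h, a change of −1.89 ± 0.33 log2 units (edgeR, adjusted p = 1.8e-06), where 32.7% of all strands were called lower and 16.5% higher. It then averaged 3426 ± 1614 at 43 to 48 h against 1106 ± 105 at 36 to 42 h, a change of 1.91 ± 0.34 (edgeR, adjusted p = 2.3e-04), where 30.9% were called lower and 16.5% higher. The level at 43, 44, 45, 46, 47 and 48 h was 1380, 1876, 3118, 3866, 4874 and 5439, each above the hour before. Over the same hours the summed miR-35 family stood at 672838 at 43 h and 1398836 at 48 h; its part in this rise was not tested.

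**Figure D3:**
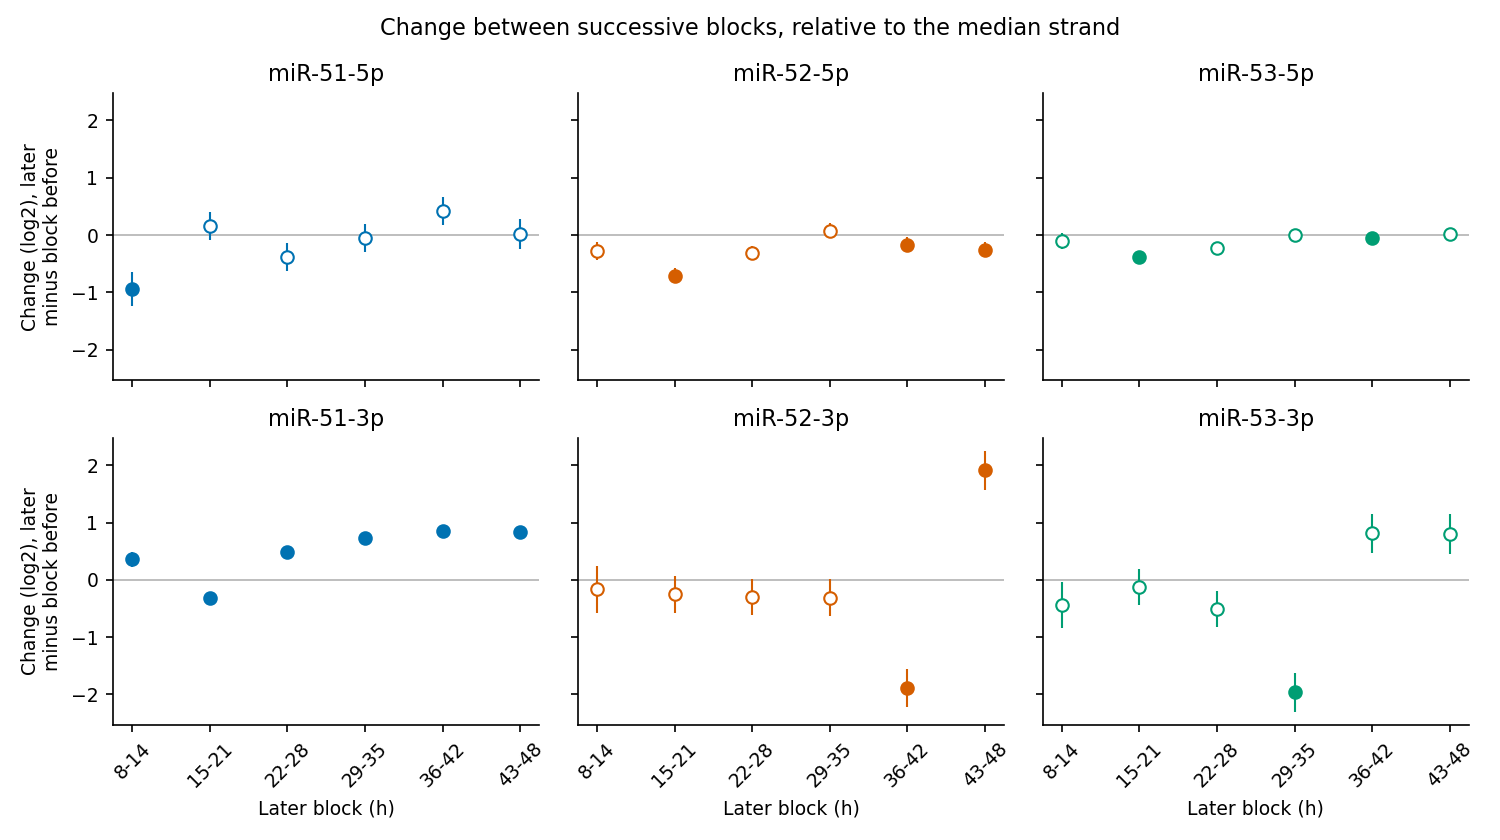
Change in log2 level of each strand between a block of hours and the block before it, relative to the median of all strands, with bars for 1 SE. Filled points passed an adjusted p under 0.05 for the unshifted change in edgeR with total-count scaling. miR-51-3p passes in all 6 contrasts, and the largest changes are those of miR-53-3p at 29 to 35 h (−1.96) and miR-52-3p at 36 to 42 h (−1.89) and 43 to 48 h (1.91).

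miR-52-5p and miR-53-5p moved closely together. Over the 44 libraries the Pearson r of their log2 levels was 0.98, and it was 0.89 for the 43 differences between neighbouring hours, where the points share libraries and their scaling. Each was the nearest of all tested strands to the other. After it, the nearest to miR-52-5p were miR-76-3p (r = 0.94) and miR-251 (0.93), and the nearest to miR-53-5p were miR-790-3p (0.93) and miR-251 (0.91). The partners miR-52-3p and miR-53-3p had an r of 0.64, and of 0.13 for hourly differences, with only 11 to 369 reads of miR-53-3p per library. The part that reads fitting both guides have in the likeness of miR-52-5p and miR-53-5p was not tested.

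The proportion between the guides of miR-53 and miR-52 was not constant, however. miR-53-5p amounted to a median of 6.64% of miR-52-5p at 5 to 7 h, 7.34% at 8 to 14 h, 8.72% at 15 to 21 h, 9.24% at 22 to 28 h, 8.93% at 29 to 35 h, 9.84% at 36 to 42 h, then 11.8% in the last block. The lowest value was 5.47% at 5 h and the highest 12.4% at 48 h. Within 8 h to 35 h the ratio of miR-53-5p to miR-52-5p changed by 0.38 ± 0.13 log2 units (limma, adjusted p = 0.00801), under the limit of 1. For miR-51-5p the change of this ratio was 0.80 ± 0.37 (limma, adjusted p = 0.0508).

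Neither of these guides was therefore called as differing from miR-52-5p in its trend, where 55.7% of all strands rose relative to it and 5.9% fell; all such ratios share miR-52-5p. Among partners, miR-51-3p rose relative to miR-52-5p by 2.40 ± 0.16 log2 units (limma, adjusted p = 1.4e-13), and miR-53-3p changed by −1.88 ± 0.52 (limma, adjusted p = 0.00193).

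miR-51-5p followed another course than these guides, in which sharp steps up were followed by slower and uneven declines. It stood at 44433 normalised counts at 15 h and 120730 at 16 h, at 38430 at 26 h and 104170 at 27 h, and at 40339 at 37 h, 63881 at 38 h and 91019 at 39 h. The steps at 16 h and 27 h were each 2.7-fold and were the largest rises of this strand between neighbouring hours. In between, it declined to 0.32 of its level from 16 h to 26 h and to 0.39 from 27 h to 37 h. Of the hourly steps in these stretches, 8 of 10 and 5 of 10 went down, as did 6 of 9 from 39 h to 48 h. These 3 steps began 11 h apart, and their hours divide the 44 hourly libraries into equal runs of 11. A further rise, from 63986 at 8 h to 122484 at 9 h, was larger than that at 38 h. It came 7 h before the step at 16 h, so the spacing of the rises was not regular. miR-52-5p went the other way at 16 h, with 100176 against 155260 at 15 h. It rose at 27 h, with 80451 against 66267 at 26 h, and at 38 h, with 67383 against 59966 at 37 h.

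The library of 8 h stood apart as well: miR-51-5p was at 63986 there, below 141051 at 7 h and 122484 at 9 h. miR-52-5p and miR-53-5p had their highest levels of the whole course in that same library. At 38 h the library was shallow, yet 10087 reads of miR-51-5p gave a 95% counting interval of 62640 to 65140 normalised counts, so counting error was small beside the step.

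The strands nearest to miR-51-5p came from the X-linked cluster of the same family: miR-55-3p (r = 0.88) and miR-56-3p (0.87) over the 44 libraries, followed by miR-49-3p (0.81). Without the library of 38 h the first 2 values were 0.88 and 0.87. For differences between neighbouring hours the r was 0.92 with miR-55-3p and 0.97 with miR-56-3p, but −0.29 with miR-52-5p and −0.42 with miR-53-5p, whose hairpin lies 1480 bases away. Points share libraries and scaling, and no p is given.

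Only 5 of 272 tested strands stood at least 0.5 log2 units higher at each of 16, 27 and 38 h than the hour before: miR-56-3p, miR-55-3p, miR-40-3p, miR-51-5p and miR-798. These hours were chosen after the levels of miR-51-5p had been seen. The median strand differed by −0.10, 0.15 and −0.07 log2 units across the same hours. Taken without sign, the median difference over all strands ranked 3, 4 and 5 among hourly steps at 16, 27 and 38 h. Only the steps to 14 h and 8 h ranked above them. The labels name no batch, lane or date, and whether the steps go with the handling of libraries was not tested. Equal runs of libraries beginning at these 3 hours could reflect handling as well as development. The part of handling in the likeness of miR-51-5p to miR-55-3p and miR-56-3p was likewise not tested.

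**Figure D4:**
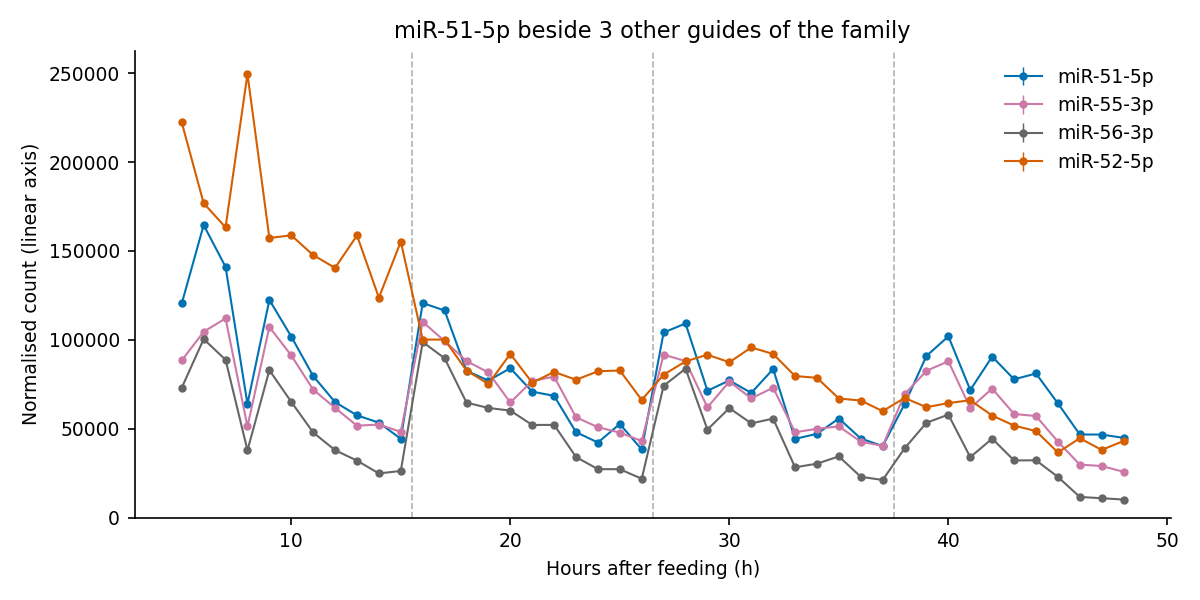
Normalised counts (linear axis) of miR-51-5p, miR-55-3p, miR-56-3p and miR-52-5p against hours after feeding, with 95% Poisson bars; dashed lines stand before 16, 27 and 38 h. miR-51-5p, miR-55-3p and miR-56-3p step up together at these hours and are low at 8 h, where miR-52-5p is highest (249502).

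The steps bear on the fitted trend. Steps after 15 h and after 26 h were added to the model, a choice made after seeing the data. The line of miR-51-5p then had a change of −4.23 log2 units relative to the median, against −0.43 without them. This is the slope within stretches scaled to the whole window, not a net fall. Block means were 77742 at 8 to 14 h and 64274 at 29 to 35 h. The steps were set at the largest rises of this strand, so its adjusted p (2.4e-07 in edgeR) gives no separate support. In that model the lines of miR-52-3p and miR-53-3p were not called (−2.23, adjusted p = 0.0880, and −1.29, adjusted p = 0.206, in edgeR).

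miR-53-3p had steps at some of the same hours, with an opposite direction at 27 h. It had 167 normalised counts at 26 h and 55.3 at 27 h, its largest drop between neighbouring hours, and 19.2 at 37 h and 69.7 at 38 h, its largest rise. These rested on 132, 60, 22 and 11 reads, with 95% counting intervals of 139 to 197, 42.2 to 71.2, 12.0 to 29.1 and 34.8 to 125 normalised counts in that order. The intervals did not overlap across either step, and from 39 h to 48 h, in deeper libraries, the level lay between 65.9 and 115. Its guide miR-53-5p showed neither step, with 7190 at 26 h and 7284 at 27 h, and 5896 at 37 h and 5693 at 38 h.

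The 2 strands of a hairpin are counted in the same library, so the ratio of their counts is free of scaling. The tested ratios had 8 added to each normalised count, which weighs most on miR-53-3p, with 19.2 at 37 h. The 3p strand of miR-51 amounted to a median of 0.184% of the 5p strand at 5 to 7 h, 0.449% at 8 to 14 h, 0.280% at 15 to 21 h, 0.675% at 22 to 28 h, 1.02% at 29 to 35 h, 1.37% at 36 to 42 h and 2.48% at 43 to 48 h. The extremes were 0.146% at 6 h and 3.70% at 48 h, a 25.3-fold range. Over 8 h to 35 h this ratio rose by 1.59 ± 0.38 log2 units (limma, adjusted p = 0.00101), as did the ratios of 18.6% of the 102 hairpins.

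For miR-53 the 3p strand amounted to a median of 2.43% of the 5p strand at 22 to 28 h, 0.556% at 29 to 35 h, 1.22% at 36 to 42 h and 1.73% at 43 to 48 h. The ratio fell by 2.26 ± 0.45 log2 units over 8 h to 35 h (limma, adjusted p = 1.4e-04), where 12.7% of hairpins fell. With correlated residuals neither ratio change was called (adjusted p = 0.197 for miR-51 and 0.763 for miR-53).

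For miR-52 the ratio had no trend that was called, −0.16 ± 0.37 log2 units (limma, adjusted p = 0.747). It swung between 3.44% at 11 h and 11.9% at 21 h from 5 h to 30 h, lay between 1.49% and 2.17% from 36 h to 42 h, and reached 12.8% at 47 h. Its amplitude of 0.39 ± 0.16 was not called (limma, adjusted p = 0.129), nor were those of miR-51 and miR-53, where 22.5% of hairpins were.

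**Figure D5:**
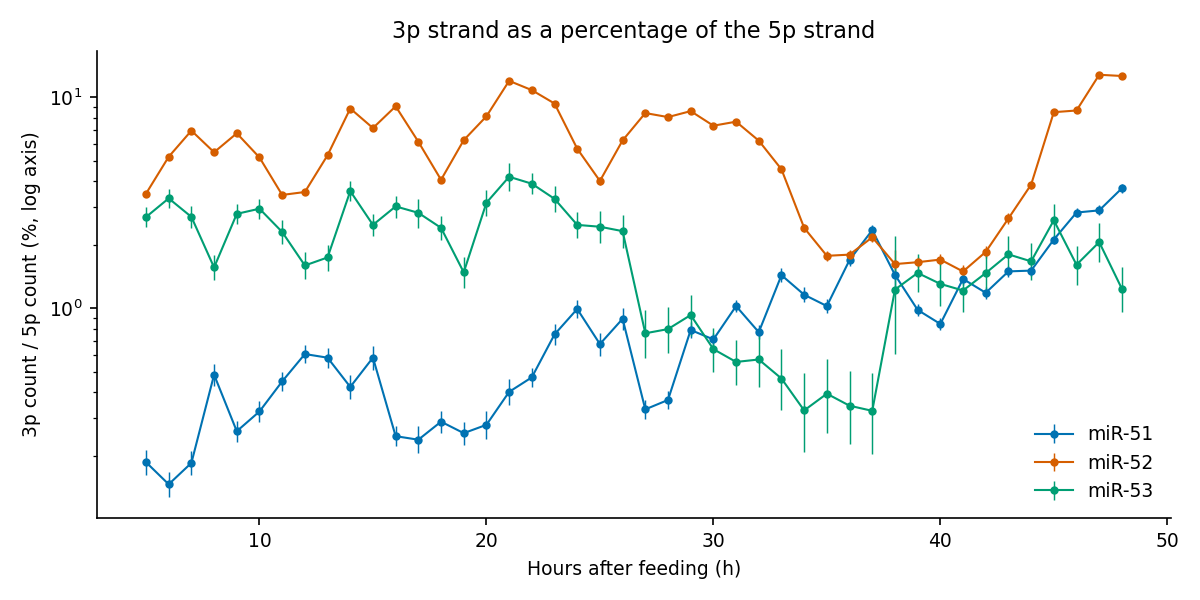
Count of the 3p strand as a percentage of the 5p strand (log axis) for miR-51, miR-52 and miR-53 against hours after feeding, with exact 95% binomial bars. The miR-51 ratio is lowest at 6 h (0.146%) and highest at 48 h (3.70%), while the miR-53 ratio is lowest at 37 h (0.326%).

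The partner strands were also unlike each other in the strands they resembled. The nearest to miR-52-3p was miR-42-3p (r = 0.94 over 44 libraries), a miR-35 family member, followed by miR-67-5p (0.92) and miR-54-5p (0.90), a partner strand of the same family. The nearest to miR-51-3p were miR-359 (0.92), miR-5549-3p (0.90) and miR-82-3p (0.90). The nearest to miR-53-3p were miR-254-3p (0.89), miR-43-3p (0.83) and miR-231-5p (0.81).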

How the data were processed

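Small RNA libraries (Illumina TruSeq) from 44 hourly collections were used. Per the study methods, adapter removal (QuasR) and Bowtie alignment to ce10 came first, and the authors then counted same-strand reads starting close to mature 5′ ends of miRBase lifted to that build. The deposited raw counts were used for every test. The deposited log2 table, made by the authors from these counts with 8 added, was matched to within 0.0005 and not tested. Labels gave 1 sample per hour; 0 columns were left unused.

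Strands averaging 10 or more counts were fitted in edgeR 4.0.16 (quasi-likelihood, total-count scaling, Benjamini-Hochberg over 272 strands), and ratios in limma 3.58.1 on log2 values with 8 added. Counting intervals (95%) are exact Poisson or binomial and cover counting error only. Figures and levels were made in Python 3.11.15 (matplotlib 3.10.9, pandas 2.3.3, SciPy 1.17.1, NumPy 2.4.6), alternatives in R 4.3.3 with nlme 3.1.168 and DESeq2 1.42.0, and scripts were tested on simulated data. Named strands were the members, the rest of the family, the markers and the 3 strands of highest r to each member; miR-40-3p and miR-798 were named after their values were seen. The members and lists were chosen with earlier results of these data known. Coordinates come from the Ensembl annotation of WBcel235, and none were converted. Alternatives were other scalings, tests, filters, windows, periods, added values, autocorrelated residuals and each library left out.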

Additional observations from a re-analysis of the deposited data

How the results depend on the processing

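No paired analysis was possible because each hour had a single library and no replicate numbers. Of 411 values under alternative settings other than leaving out a library, 375 kept their direction and their side of the threshold, as did 2200 of 2264 with a library left out. The number of members with a called line, 4, was 1 with autocorrelated residuals, 2 over 15 to 35 h and 1 over 8 to 28 h, windows with fewer libraries. The number called rhythmic, 0, was 1 over 8 to 28 h and with a period of 7.5 h or 8 h. The number of hairpins with a called ratio change, 2, was 0 with autocorrelated residuals; the causes were not tested. Leaving out each library gave 3 to 4 called lines, 0 to 1 rhythms and 13 to 17 block calls. The line of miR-52-3p passed the limit no longer with TMM factors (−1.17 relative to the median), nor without 34 h (−0.99) or 35 h (−0.88).

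Changes near 0 relative to the median turned sign: at 43 to 48 h miR-51-5p was −0.0123 with TMM factors and −0.0238 with no minimum count, and miR-53-5p was −0.0270 with no minimum count and −0.00380 in limma (adjusted p = 0.0442 for the unshifted change). At 29 to 35 h miR-51-5p was 0.0310 and miR-53-5p −0.00615 in limma. With a library left out, miR-51-5p ranged from −0.133 to 0.105 at 29 to 35 h and from −0.0950 to 0.133 at 43 to 48 h. miR-53-5p ranged from −0.0219 to 0.0488 and from −0.00930 to 0.0624 in these contrasts, and the miR-52 strand ratio from −0.294 to 0.267.

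Over all strands, 39 rhythms were 21 with a period of 6.5 h or 8 h, and 76 rising lines were 47 with autocorrelated residuals. The 11 strands lower at 8 to 14 h were 19 with TMM factors, 43 with DESeq2 size factors and 48 in DESeq2; the 89 lower at 36 to 42 h were 44 with TMM factors; and the 84 lower at 43 to 48 h were 23, 27 and 28. Depth limits miR-53-3p most, with 11 to 369 reads per library.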

Other observations

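The other strands that stepped up with miR-51-5p did so by differing amounts. From 15 h to 16 h the difference was 1.91 log2 units for miR-56-3p, 1.44 for miR-51-5p, 1.36 for miR-40-3p, 1.19 for miR-55-3p and 0.76 for miR-798. From 26 h to 27 h it was 1.76, 1.44, 0.97, 1.09 and 0.62 in the same order, and from 37 h to 38 h 0.88, 0.66, 0.73, 0.78 and 0.88. No tested strand stood at least 0.5 log2 units lower at all 3 of these hours. miR-54-3p, which shares the cluster of miR-55 and miR-56, had 54137 normalised counts at 15 h and 34920.1 at 16 h.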
